A study of Mus musculus with 20 samples.

Results

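Lipocalin 2 (Lcn2) and 9 other acute-phase and cytokine-induced genes, Serpina3n, Cp, Steap4, Osmr, Socs3, Cebpd, Il1r1, Ch25h and S100a10, were followed in every library of a mouse hippocampus RNA-seq study. These 10 genes, of 49671 counted, were taken by name, and they had been selected on values measured in these same libraries. Their levels and their movement together are therefore given as a description. They entered the fits over all genes, whose calls among them are counted with nothing read from them, and their relations to genes outside the group were tested. All 10 had enough counts to enter the fits with 18427 genes. Gene coordinates are those of the deposited tables, which correspond to the mouse build GRCm38.

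The study sequenced single fresh-frozen hippocampi of adult male wild-type mice, 10 to 12 weeks old, 5 mice in each of 4 groups. It is about inflammation and degeneration in the brain after immune checkpoint inhibition (ICI). Control mice had no tumour and were given isotype-matched antibody. ICI mice had no tumour and were given antibody to CTLA-4 (1 mg per dose, 3 doses a week) and to PD-1 (200 µg per dose, 2 doses a week). Melanoma mice had D4M-3A.UV2 tumours, a mouse melanoma line injected into the skin on both sides at 500000 cells per injection, and were given isotype antibody after 1 week of engraftment. Mice of the fourth group, melanoma plus ICI, called the combined group from here on, had the same tumours and both checkpoint antibodies, for a stated 3 weeks. Harvest came 72 hours after the final dose in all groups, and the model is limited to males, to 1 tumour line and to 1 time of harvest. What the library numbers stand for is not given, so a processing batch and the groups cannot be told apart.

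Acute-phase genes are switched on when tissue senses cytokines. Cytokines of the interleukin 6 family, oncostatin M among them, act through receptors that contain gp130 (Il6st) and the transcription factor STAT3, and interleukin 1 acts through NF-kB; C/EBP transcription factors act with both. In the brain, astrocytes, endothelial cells and cells of the brain's borders are known to make many of the products, which bind iron, copper, proteases or lipids, and lipocalin 2 is also a product of neutrophils.

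Depth and tissue make-up set the limits. Library totals were 21990624 to 25735149 counts, and 3 counts, the most that a count of 0 allows, corresponded to 0.116 to 0.143 CPM (counts per 1000000), a bound for counting error only. Control replicate 4 and combined replicate 1 lay far from the other 18 on the first principal component, which held 23.4% of the variance, at -71.4 and -61.5 against -27.5 to 40.9. All 10 markers of hippocampal neurons were detected, and their summed level ran from 367 to 1736 CPM, so hippocampal markers were present in every library, at unequal levels. Markers of choroid plexus, the tissue of the adjoining ventricle, ran from 25.9 to 6802 CPM and those of striatal neurons from 96.9 to 1002 CPM, with 420 to 1002 CPM in melanoma replicates 1, 3 and 5 and combined replicate 3 and at most 168 CPM in the other 16. These are bulk samples: fewer cells of a type and less RNA per cell cannot be told apart.

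RefSeq promoter entries (build GRCm38.p6) were found for 8 of the 10 genes, in 10 windows, and not for Cebpd and S100a10. The 250 bases before each start were searched on both strands for the motifs of the 3 factor families named above, TTCNNNGAA for STAT, TTGCNNAA for C/EBP and, for NF-kB, GGGA and CC with 4 bases of any kind between them. The STAT motif was in 2 of the 8 genes and in 7.02% of all 32851 promoters, the C/EBP motif in 5 of 8 and 9.56%, and the NF-kB motif in 6 of 8 and 17.6%. A gene was counted if any of its windows held the motif, whereas the shares of all promoters count single windows. Cp and Il1r1 had more windows than the other genes, so the units differ. No match overlapped another. A match is a description of letters and not a site shown to be used. The windows of 4 genes are shown because they stand for the patterns described next: Serpina3n and Il1r1 moved together, Ch25h moved against them, and Steap4 is the gene whose window held all 3 motifs. Motif matches are in capitals, and every sequence is read 5′ to 3′ on the strand of its gene.
Serpina3n (chr12:104406458-104406707, plus strand): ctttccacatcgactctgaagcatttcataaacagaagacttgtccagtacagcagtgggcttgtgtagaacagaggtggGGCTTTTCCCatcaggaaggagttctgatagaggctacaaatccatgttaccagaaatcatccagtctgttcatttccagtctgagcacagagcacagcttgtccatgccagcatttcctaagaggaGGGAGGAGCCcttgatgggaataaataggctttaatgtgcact
Il1r1 (chr1:40224830-40225079, plus strand): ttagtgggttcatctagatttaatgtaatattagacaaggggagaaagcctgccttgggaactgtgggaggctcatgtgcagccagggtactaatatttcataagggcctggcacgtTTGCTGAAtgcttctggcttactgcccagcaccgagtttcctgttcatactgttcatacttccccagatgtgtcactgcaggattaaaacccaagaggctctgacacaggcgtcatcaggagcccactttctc
Ch25h (chr19:34475149-34475398, minus strand): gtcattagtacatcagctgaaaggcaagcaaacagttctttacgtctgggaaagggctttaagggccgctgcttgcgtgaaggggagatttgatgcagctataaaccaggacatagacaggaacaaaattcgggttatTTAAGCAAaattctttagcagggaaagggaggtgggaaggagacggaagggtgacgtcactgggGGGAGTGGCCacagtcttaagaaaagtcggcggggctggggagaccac
Steap4 (chr5:7960222-7960471, plus strand): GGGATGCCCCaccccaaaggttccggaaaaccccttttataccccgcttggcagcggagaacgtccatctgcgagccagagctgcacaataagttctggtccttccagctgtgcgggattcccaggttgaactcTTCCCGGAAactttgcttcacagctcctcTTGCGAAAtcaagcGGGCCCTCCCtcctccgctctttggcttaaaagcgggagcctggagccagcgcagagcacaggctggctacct
The Serpina3n window held 2 NF-kB matches, the Il1r1 window a C/EBP match, the Ch25h window a C/EBP and an NF-kB match, and the Steap4 window all 3 kinds. The Serpina3n and Il1r1 windows ended before the deposited gene start, whereas the last bases of the Steap4 window lay in its first exon and the far end of the Ch25h window in an exon of Gm26902, a gene on the other strand. For Lcn2 and Socs3, a 30-base stretch with the C/EBP match of Lcn2 and the STAT match of Socs3 is shown.
Lcn2 (chr2:32387937-32387966, minus strand): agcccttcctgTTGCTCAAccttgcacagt
Socs3 (chr11:117969501-117969530, minus strand): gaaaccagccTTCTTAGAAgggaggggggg
The Lcn2 stretch lay in an exon of 1 of its annotated transcripts, and the Socs3 stretch in none.

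Per kilobase of summed exon length, Serpina3n had the highest mean level of the 10, 16.6 CPM per kilobase, followed by S100a10 with 8.10 and Cebpd with 2.77. Il1r1 had 1.89, Cp 1.51, Socs3 0.944, Osmr 0.493 and Ch25h 0.402 CPM per kilobase. Lcn2, with 0.259, and Steap4, with 0.208 CPM per kilobase, were the lowest. The order by spread was different. The highest library exceeded the lowest 52.6-fold for Steap4 and 46.6-fold for Ch25h, which are both of low count, and 3.19-fold to 5.80-fold for the other 7 genes with counts in all libraries.

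Across groups, 0 of the 10 genes had an adjusted p under 0.05 in any of 6 contrasts by edgeR's quasi-likelihood test with Benjamini-Hochberg adjustment, and 0 did by DESeq2 or limma voom. The same test called 0% of all genes in each contrast. At an unadjusted p under 0.05, ICI against control had 0 of the 10 higher and 1 lower, against 5.23% of all genes in either direction. Melanoma against control had 2 higher and 0 lower (5.11% of all genes), and the combined group against control 2 higher and 0 lower (2.38%). The combined group against melanoma had 0 in either direction (5.50%), the combined group against ICI had 3 higher and 0 lower (8.63%), and the interaction of tumour and ICI 1 higher and 0 lower (10.3%). Nothing is read from these counts, since the genes had been chosen on the same values. The median log2 fold change of the 10 genes was 0.56 in the combined group against ICI, where that of all genes was 0.025, and 0.0037 in melanoma against control, where that of all genes was -0.0097. It was -0.28 in ICI against control, 0.18 in the combined group against control, 0.027 in the combined group against melanoma and 0.62 for the interaction, with -0.0098 to 0.025 for all genes. The combined group against ICI shares the ICI libraries with ICI against control, and the contrasts against control share the control libraries.

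**Figure D1:**
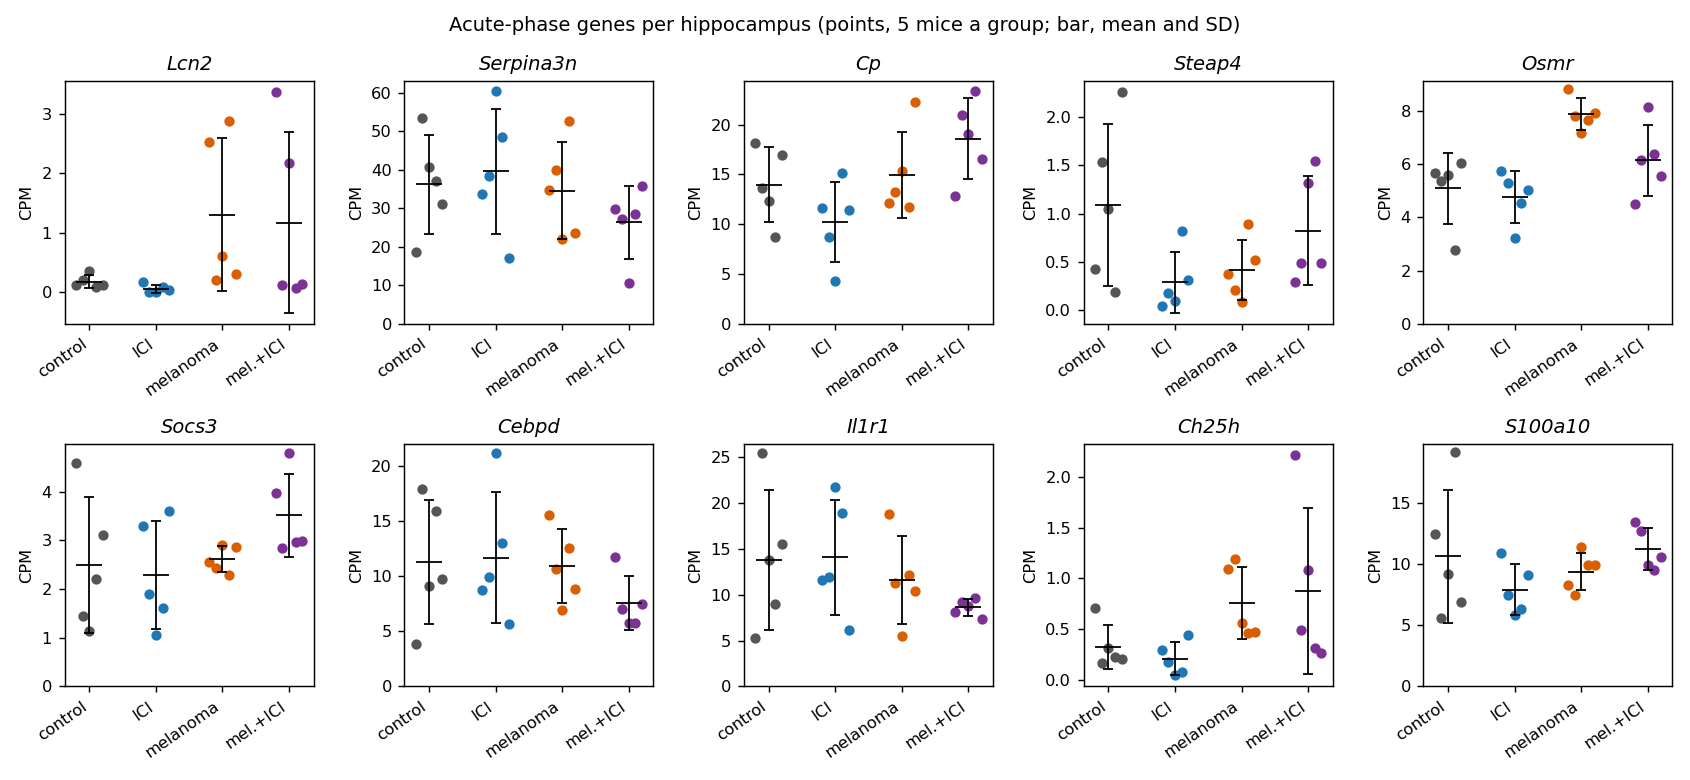
Level of each of the 10 genes in CPM (vertical axes, linear, 1 panel a gene) in the 4 groups (mel.+ICI is the combined group); points are single hippocampi, and the bar and whiskers are the mean and SD of 5. Lcn2 is near 0 in most libraries and at 2.17 to 3.37 CPM in 4 tumour-bearing ones, and Osmr is the gene whose melanoma points all lie above the control points.

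Osmr, at chr15:6813577-6874969 on the minus strand, encodes the subunit that pairs with gp130 to form the oncostatin M receptor. In replicate order its level was 5.68, 5.36, 5.60, 2.77 and 6.03 CPM in control and 5.75, 5.30, 3.24, 4.53 and 5.02 CPM in ICI. It was 8.83, 7.81, 7.19, 7.68 and 7.94 CPM in melanoma and 4.52, 6.15, 8.17, 6.40 and 5.56 CPM in the combined group. All 5 melanoma libraries lay above all 5 control libraries and above all 5 ICI libraries, while the combined group overlapped each of the other groups. The mean was highest in melanoma (7.89 ± 0.597 CPM, SD, n = 5), then the combined group (6.16 ± 1.34), control (5.09 ± 1.32) and ICI (4.77 ± 0.962), and control differed from its neighbours in this order by less than the spread. Melanoma against control had a log2 fold change of 0.63 (SE 0.19), and 0.48 without control replicate 4, the lowest library.

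In the 5 pairs of groups with a contrast, Osmr alone of the 10 genes had groups that did not overlap, in melanoma against control. Over all genes, groups did not overlap in 0.885% of genes in ICI against control, 1.04% in melanoma against control, 0.304% in the combined group against control, 1.54% in the combined group against melanoma and 1.45% in the combined group against ICI. Between melanoma and ICI, a pair with no fitted contrast that was looked at after the values were seen, 3 of the 10 did not overlap, against 1.41% of all genes: Osmr, Lcn2 and Ch25h were higher in all melanoma libraries. Nothing is read from these shares, for the same reason as above.

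Genes for the receptor's partners and for STAT3 were set beside it. Il6st was at 91.3 ± 20.8 CPM in control and 96.6 ± 13 CPM in melanoma, and Lifr, the receptor subunit for leukaemia inhibitory factor, at 48.4 ± 6.26 and 54.9 ± 2.36 CPM. Stat3 was at 53.5 ± 11.4 and 56.7 ± 4.22 CPM. The ranges of each of these 3 genes overlapped between control and melanoma.

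Of the ligands, Il6 and Osm were close to the limit of detection. Il6 totalled 4, 6, 7 and 3 counts over the 5 libraries of control, ICI, melanoma and the combined group, and Osm, which encodes oncostatin M, 9, 17, 9 and 8 counts. Lif was higher, at 0.581 to 1.93 CPM over the 20 libraries. Of 20 listed genes of interleukin 6 family and STAT3 signalling, 17 were tested, and 0 had an adjusted p under 0.05 in any contrast. In the combined group against ICI the median log2 fold change was 0.041, where that of all genes was 0.025. There, 1 was higher and 1 lower at an unadjusted p under 0.05, against 8.63% of all genes in either direction. The greater change was in Tyk2, a Janus kinase, at -0.38 (SE 0.16).

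Il1r1, at chr1:40225080-40317257 on the plus strand, encodes the signalling receptor for interleukin 1. Its level was 5.25, 25.4, 13.8, 8.95 and 15.5 CPM in control, 11.6, 11.9, 21.7, 18.9 and 6.13 CPM in ICI, and 18.8, 11.3, 5.46, 12.1 and 10.4 CPM in melanoma. The combined group had 8.09, 9.17, 8.79, 9.67 and 7.38 CPM, a range that lay inside that of each other group. Means were 14.1 ± 6.23 CPM in ICI mice, 13.8 ± 7.66 in control mice, 11.6 ± 4.76 with melanoma and 8.62 ± 0.901 in the combined group (SD, n = 5), and no neighbours in this order differed beyond their spread. The lowest and the highest single values were both in control libraries.

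The receptor's accessory protein, Il1rap, was at 59.2 ± 19.3 CPM in control mice, 66.2 ± 16.8 in ICI mice, 55.7 ± 9.08 with melanoma and 48.1 ± 4.43 in the combined group. Its log2 fold change in the combined group against ICI was -0.46 (SE 0.19), the largest at an unadjusted p under 0.05 in its list. The ligand genes were low: Il1a was at 0.343 to 0.487 CPM and Il1b at 0.123 to 0.215 CPM as group means, Tnf totalled 5 to 12 counts a group, and Il1rn, the receptor antagonist, 0 to 2 counts a group. Of 24 listed genes of interleukin 1, TNF and NF-kB signalling, 20 were tested and 0 had an adjusted p under 0.05. In the combined group against ICI, 3 were higher and 1 lower at an unadjusted p under 0.05, against 8.63% of all genes in either direction.

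Socs3, at chr11:117966079-117970047 on the minus strand, encodes the feedback inhibitor of gp130 signalling and is itself a STAT3 target. Its level was 4.58, 1.45, 1.14, 2.21 and 3.12 CPM in control, 3.30, 1.90, 1.05, 1.61 and 3.60 CPM in ICI, and 2.56, 2.43, 2.90, 2.29 and 2.86 CPM in melanoma. Combined libraries were at 3.98, 2.85, 4.80, 2.96 and 2.98 CPM. Means were 3.52 ± 0.852 CPM in the combined group, 2.61 ± 0.268 in melanoma, 2.5 ± 1.39 in control and 2.29 ± 1.11 in ICI. The 4 ranges overlapped, and the highest control library was above 4 of the 5 combined libraries.

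Cebpd, at chr16:15887286-15891031 on the plus strand, encodes C/EBP delta, a transcription factor of the acute-phase response. Its level was 3.88, 17.9, 9.16, 16 and 9.81 CPM in control, 8.75, 9.93, 21.2, 13.1 and 5.64 CPM in ICI, and 15.6, 10.7, 6.97, 12.6 and 8.90 CPM in melanoma. The 5 combined libraries held 11.8, 7.05, 5.81, 5.73 and 7.47 CPM. The lowest single library was control replicate 1 and the highest ICI replicate 3, so the tumour-free groups held both extremes. Cebpd shares 559 exon bases with Spidr on the other strand, whose counts were 35.2% of its own, and whether counting used strand is not given. Its relative Cebpb was at 7.34 ± 2.77 CPM in control and 4.92 ± 1.76 CPM in the combined group, and 0 of 4 other C/EBP family genes had an unadjusted p under 0.05 in any contrast. Over all genes this share was 2.38% to 10.3%, depending on the contrast.

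Lcn2, at chr2:32384633-32388252 on the minus strand, encodes lipocalin 2, which binds the iron carriers of bacteria. Its level was 0.118, 0.213, 0.365, 0.0923 and 0.123 CPM in control and 0.172, 0, 0, 0.0824 and 0.0444 CPM in ICI. It was 2.52, 0.213, 0.607, 2.88 and 0.304 CPM in melanoma and 3.37, 0.122, 2.17, 0.0790 and 0.133 CPM in the combined group. Melanoma replicates 1 and 4 and combined replicates 1 and 3 were high, with 60, 68, 82 and 56 counts, and the other 16 libraries had 0 to 14 counts. The remaining tumour-bearing libraries overlapped the tumour-free ones, at 0.0790 to 0.607 CPM against 0 to 0.365 CPM. No counts were found in ICI replicates 2 and 3, which allows up to 0.132 and 0.143 CPM.

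Summed over 5 libraries, Lcn2 had 21 counts in control mice, 7 in ICI mice, 154 with melanoma and 146 in the combined group. Fitted log2 fold changes were 2.82 (SE 0.99) for melanoma against control, 2.67 (SE 0.99) for the combined group against control and 4.15 (SE 1.17) for the combined group against ICI. The combined group against melanoma had -0.15 (SE 0.81), and -1.87 to 0.66 over the alternative fits. Without combined replicate 1, the combined group had 1.78 against control and 3.26 against ICI. Limma voom, which gives less weight to libraries that depart from their group, had -0.18 for the combined group against control and 1.70 against ICI, and 1.69 for melanoma against control. High and low libraries in 1 tumour group came from mice with the same labels.

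**Figure D2:**
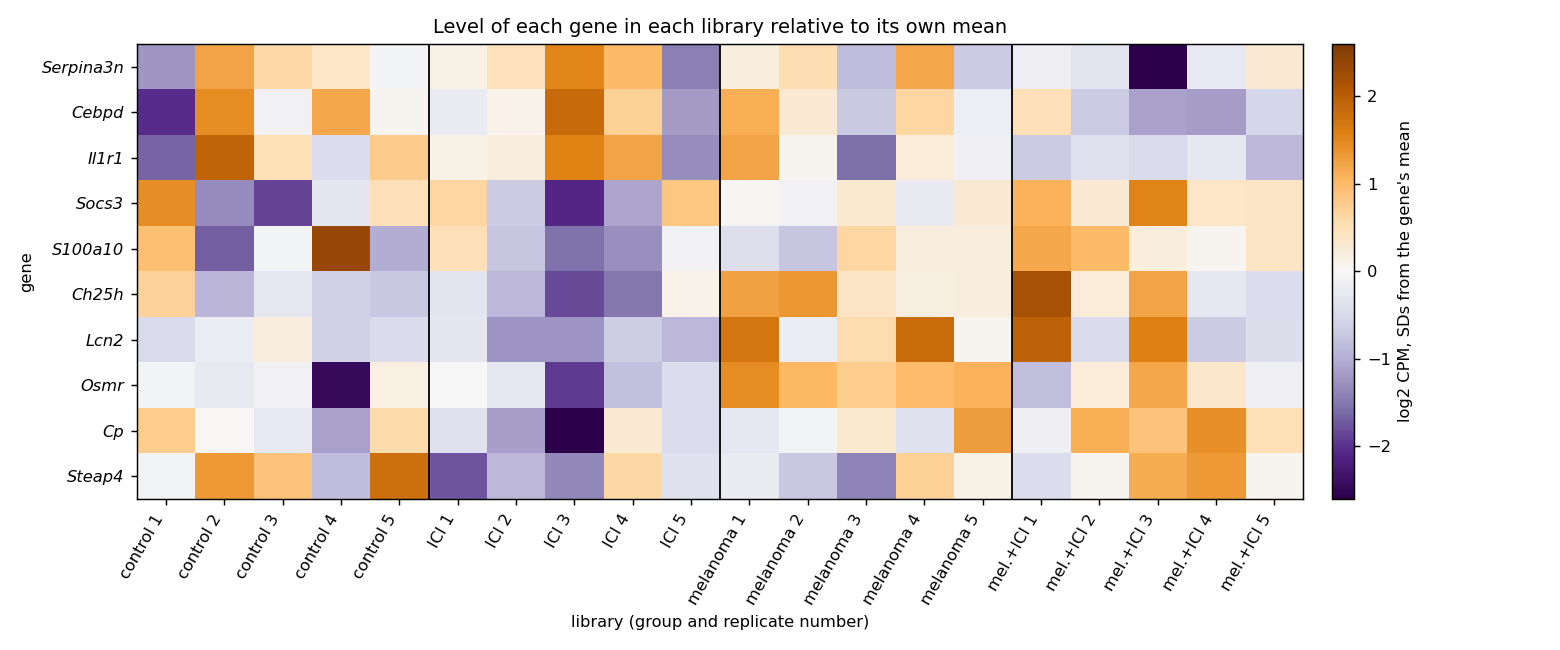
Log2 CPM of each gene (rows of the heat map) in each library (columns, by group and replicate number), in SDs from the gene's mean over 20 libraries; orange is above and purple below the mean. Lcn2 is orange in melanoma replicates 1 and 4 and in combined replicates 1 and 3, and the rows of Serpina3n, Cebpd and Il1r1 run against those of Socs3, S100a10 and Ch25h.

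Other transcripts were set beside the 4 libraries high in Lcn2. Lrg1, an acute-phase glycoprotein of vessels, was at 2.61, 1.45, 1.73, 3.31 and 1.48 CPM in melanoma and at 1.23, 0.937, 3.56, 0.790 and 0.311 CPM in the combined group, against 0.766 to 1.56 CPM in the 10 tumour-free libraries. It was thus highest in 3 of those 4 libraries and within the tumour-free range in the fourth, combined replicate 1. S100a8, a neutrophil protein gene, was at 0.378, 0.339, 0.616 and 0.0774 CPM in the 4 libraries, and Saa3, serum amyloid A3, totalled 1 to 3 counts in each group. Summed over 10 neutrophil markers, 1 of which passed the filter, the level was 1.48 to 3.47 CPM in tumour-free and 1.82 to 4.39 CPM in tumour-bearing libraries, and no marker was at 0 in all libraries. In melanoma replicates 1 and 4 and combined replicates 1 and 3, the 4 high in Lcn2, this sum was 2.52, 1.82, 4.39 and 3.14 CPM. The part of neutrophil RNA in the Lcn2 levels was not tested.

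By Spearman's rho over 20 libraries, and among 15468 tested genes with a mean of at least 1 CPM, the genes most like Lcn2 were Cwc25 (0.81), Klf2 (0.79), Junb (0.77), Fosb (0.76), Gimap6 (0.75), Adgrl4 (0.75), 1700016P03Rik (0.74), Csrnp1 (0.73), Egr2 (0.73) and Fas (0.72). These are the top values of a search over 15468 genes with only 20 libraries. How high the top values of unrelated genes would be in such a search was not tested. Klf2, an endothelial transcription factor, was at 12.9 and 17.1 CPM in combined replicates 1 and 3 and at 5.33 to 7.17 CPM in the other 3 of that group. Fosb, an immediate early gene, was at 32.3 and 34.8 CPM in the same 2 libraries and at 10.7 to 22 CPM in the other 3. In melanoma the pattern was different, with Klf2 at 8.45 and 10.1 CPM in the 2 libraries high in Lcn2 and at 13.8 to 14.4 CPM in the other 3.

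The gene for the brain receptor of lipocalin 2, Slc22a17, was abundant at 812 ± 59.9 CPM in control mice, 764 ± 29.3 in ICI mice, 728 ± 70.9 with melanoma and 789 ± 84.7 in the combined group. The groups overlapped. Of 15 listed genes for lipocalin 2 receptors and iron handling, all were tested and 0 had an adjusted p under 0.05. In the combined group against ICI 0 had an unadjusted p under 0.05, against 8.63% of all genes. Of 24 other acute-phase plasma protein genes, 10 passed the filter and 0 had an unadjusted p under 0.05 in melanoma, ICI or the combined group against control, or in the combined group against ICI. Over all genes the shares were 5.11%, 5.23%, 2.38% and 8.63% in this order. Against melanoma the combined group had 2 lower (5.50% of all genes in either direction), with the larger change in Mt2. For the interaction 1 was higher, A2m (10.3% of all genes).

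Serpina3n, at chr12:104406729-104414329 on the plus strand, encodes a secreted serine protease inhibitor and is a marker of reactive astrocytes. Its level was 18.6, 53.5, 40.7, 37.2 and 31.0 CPM in control, 33.6, 38.3, 60.6, 48.6 and 17.1 CPM in ICI, and 34.7, 39.9, 22.1, 52.7 and 23.6 CPM in melanoma. The combined group had 29.8, 27.3, 10.5, 28.5 and 35.8 CPM. Means were 39.6 ± 16.3 CPM in ICI mice, 36.2 ± 12.8 in control mice, 34.6 ± 12.6 with melanoma and 26.4 ± 9.47 in the combined group, and neighbours in this order differed by less than their spread. Replicate 3 of the combined group was far below the rest of its group. Serpina3n belongs to a family of closely related copies, so some reads may have been split among them.

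Gfap, the intermediate filament of astrocytes, was at 347 ± 56.9 CPM in control and 298 ± 62.0 in the combined group, within the spread. Of 16 other listed reactive astrocyte genes, 15 were tested and 0 had an adjusted p under 0.05. In the combined group against ICI the median log2 fold change was 0.26, where that of all genes was 0.025. There, 3 were higher and 1 lower at an unadjusted p under 0.05, against 8.63% of all genes in either direction. The largest change among these 4 was in Cd109, at -1.10 (SE 0.49).

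Cp, at chr3:19957054-20009145 on the plus strand, encodes ceruloplasmin, a copper-carrying ferroxidase. Its level was 18.2, 13.6, 12.3, 8.72 and 16.9 CPM in control, 11.7, 8.70, 4.29, 15.2 and 11.4 CPM in ICI, and 12.2, 13.2, 15.3, 11.7 and 22.3 CPM in melanoma. Combined libraries were at 12.9, 21.0, 19.1, 23.4 and 16.5 CPM, with 4 of 5 libraries above all ICI libraries. The log2 fold change of the combined group against ICI was 0.86 (SE 0.27), and 0.28 with choroid plexus and meningeal fibroblast scores as covariates. Cp shares 108 exon bases with Hps3 on the other strand, whose counts were 123% of its own.

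Steap4, at chr5:7960457-7982213 on the plus strand, encodes a metalloreductase that reduces iron and copper. Its level was 0.431, 1.53, 1.05, 0.185 and 2.26 CPM in control, 0.0429, 0.177, 0.0953, 0.824 and 0.311 CPM in ICI, and 0.378, 0.213, 0.0866, 0.891 and 0.521 CPM in melanoma. The 5 combined libraries held 0.287, 0.489, 1.32, 1.54 and 0.489 CPM. Within control it spanned 0.185 to 2.26 CPM and within ICI 0.0429 to 0.824 CPM, and all 4 ranges overlapped. ICI against control had a log2 fold change of -1.87 (SE 0.71), and the interaction 2.85 (SE 0.99). With choroid plexus and meningeal fibroblast scores as covariates these were -1.30 and 1.30, and without ICI replicate 4 they were -2.76 and 3.74.

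Ch25h, at chr19:34473786-34475135 on the minus strand, encodes cholesterol 25-hydroxylase, which makes the oxysterol 25-hydroxycholesterol. Its level was 0.705, 0.170, 0.319, 0.231 and 0.205 CPM in control and 0.300, 0.177, 0.0476, 0.0824 and 0.444 CPM in ICI. It was 1.09, 1.19, 0.563, 0.467 and 0.477 CPM in melanoma and 2.22, 0.489, 1.08, 0.316 and 0.267 CPM in the combined group. All 5 melanoma libraries lay above all 5 ICI libraries, and 4 of the 5 control libraries lay below all melanoma libraries. The highest libraries of the combined group, replicates 1 and 3, were the ones high in Lcn2, but in melanoma only replicate 1 of the 2 highest in Ch25h was also high in Lcn2.

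For Ch25h the log2 fold change was 1.19 (SE 0.59) for melanoma against control and 2.03 (SE 0.62) for the combined group against ICI, which was 1.34 without combined replicate 1 and 1.14 by limma voom. It shares 159 exon bases with Gm26902 on the other strand, whose counts were 180% of its own. Cyp7b1, which clears 25-hydroxycholesterol, was at 16 ± 4.68 CPM in control and 11.8 ± 2.55 in the combined group, and Gpr183, the receptor for the oxysterol made next, at 0.911 ± 0.317 and 0.698 ± 0.206 CPM. Of 9 other oxysterol genes, 0 had an adjusted p under 0.05. In the combined group against ICI, Insig1 was the 1 with an unadjusted p under 0.05 (8.63% of all genes), at 0.30 (SE 0.11).

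S100a10, at chr3:93555080-93564643 on the plus strand, encodes the light chain that joins annexin A2 into a membrane complex. Its level was 12.5, 5.57, 9.20, 19.2 and 6.89 CPM in control, 10.9, 7.46, 5.81, 6.30 and 9.11 CPM in ICI, and 8.28, 7.47, 11.4, 9.93 and 9.98 CPM in melanoma. The combined group had 13.5, 12.8, 9.99, 9.52 and 10.6 CPM. The lowest and the highest library were both control ones. Anxa2 was at 9.25 ± 1.29 CPM in control mice, 7.65 ± 1.78 in ICI mice, 8.68 ± 2.5 with melanoma and 10.8 ± 2.19 in the combined group.

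Of 11 other S100 and annexin genes, 9 were tested and 0 had an adjusted p under 0.05. In the combined group against ICI, 9 of 9 had a positive log2 fold change, 4 were higher and 0 lower at an unadjusted p under 0.05, and the median was 0.33. Anxa1 had the largest of the 4, at 1.05 (SE 0.38). Over all genes, 8.63% had such a p in that contrast. In ICI against control, 0 of 9 were positive and 3 were lower at an unadjusted p under 0.05 (5.23% of all genes), and for the interaction 6 were higher and 0 lower (10.3%). These contrasts share the ICI libraries. Summed meningeal fibroblast markers were at 64.6 to 258 CPM in ICI and 157 to 468 CPM in the combined group, and mural cell markers at 156 to 205 and 204 to 272 CPM. Their part in these changes was not tested.

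Over all 10 pathway lists, 114 of 142 genes were tested, and 0 had an adjusted p under 0.05 in any contrast by edgeR. At an unadjusted p under 0.05, 18 were higher and 4 lower in the combined group against ICI, 19.3% of those tested, against 8.63% of all genes. Against control the combined group had 3 higher and 1 lower, 3.51%, beside 2.38% of all genes. Of 10 tested genes of cytokine-activated endothelium, 5 were higher and 0 lower at that p in the combined group against ICI (8.63% of all genes). Their median was 0.61, and Icam1 had the largest, 1.53 (SE 0.49). Summed over 10 endothelial markers, the level was 190 to 236 CPM in ICI and 229 to 321 CPM in the combined group, and its part in these changes was not tested. Icam1 was at 19.6 CPM in combined replicate 1, which was also highest in Lcn2 and Ch25h, and at 2.05 to 3.40 CPM in the other 4 of the group. By DESeq2, Vcam1, an endothelial adhesion molecule, and Aspg passed in the combined group against ICI, each with an adjusted p of 0.0312.

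All 11 genes of the list of glucocorticoid-responsive genes were tested, and in melanoma against control 11 of 11 had a positive log2 fold change, 7 of them with an unadjusted p under 0.05 (5.11% of all genes), with a median of 0.54. The summed striatal markers were 420, 101.8, 1002, 143 and 571 CPM in melanoma against 108 to 136 CPM in control, and their part in this change was not tested. In the combined group against melanoma 0 of 11 were positive, 5 were lower at an unadjusted p under 0.05 (5.50% of all genes), and the median was -0.38. In the combined group against ICI the largest change was in Cdkn1a, at 1.11 (SE 0.34). These contrasts share libraries, and 0 of the 11 had an adjusted p under 0.05 by edgeR.

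The 10 genes did not move as 1 group across libraries. Over 20 libraries, the 45 pairs had a median Spearman's rho of 0.054 between log2 CPM values, 24 positive and 21 negative, from -0.85 to 0.83. There were 11 pairs above 0.5 and 9 below -0.5. All points share library depth and dissection, and the coefficients are a description. With group means removed, the median was 0.012, and 38 of 45 pairs kept their sign.

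Serpina3n, Cebpd and Il1r1 moved together, with rho of 0.83 for Serpina3n and Cebpd, 0.77 for Serpina3n and Il1r1 and 0.74 for Cebpd and Il1r1. Against them moved Socs3, with -0.85, -0.72 and -0.72 for the 3 genes in the same order, and S100a10, with -0.77 for Il1r1. ICI replicate 3 had the highest Serpina3n and Cebpd and the lowest Socs3 of all libraries.

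Lcn2, Ch25h and Osmr formed another group of positive pairs, at 0.66 for Lcn2 and Ch25h, 0.59 for Ch25h and Osmr and 0.55 for Lcn2 and Osmr. With group means removed these were 0.40, 0.34 and 0.27. Cp moved with Steap4 at 0.60 and with Osmr at 0.52. Lcn2 and Serpina3n, both often used as markers of reactive astrocytes, had a rho of -0.09.

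**Figure D3:**
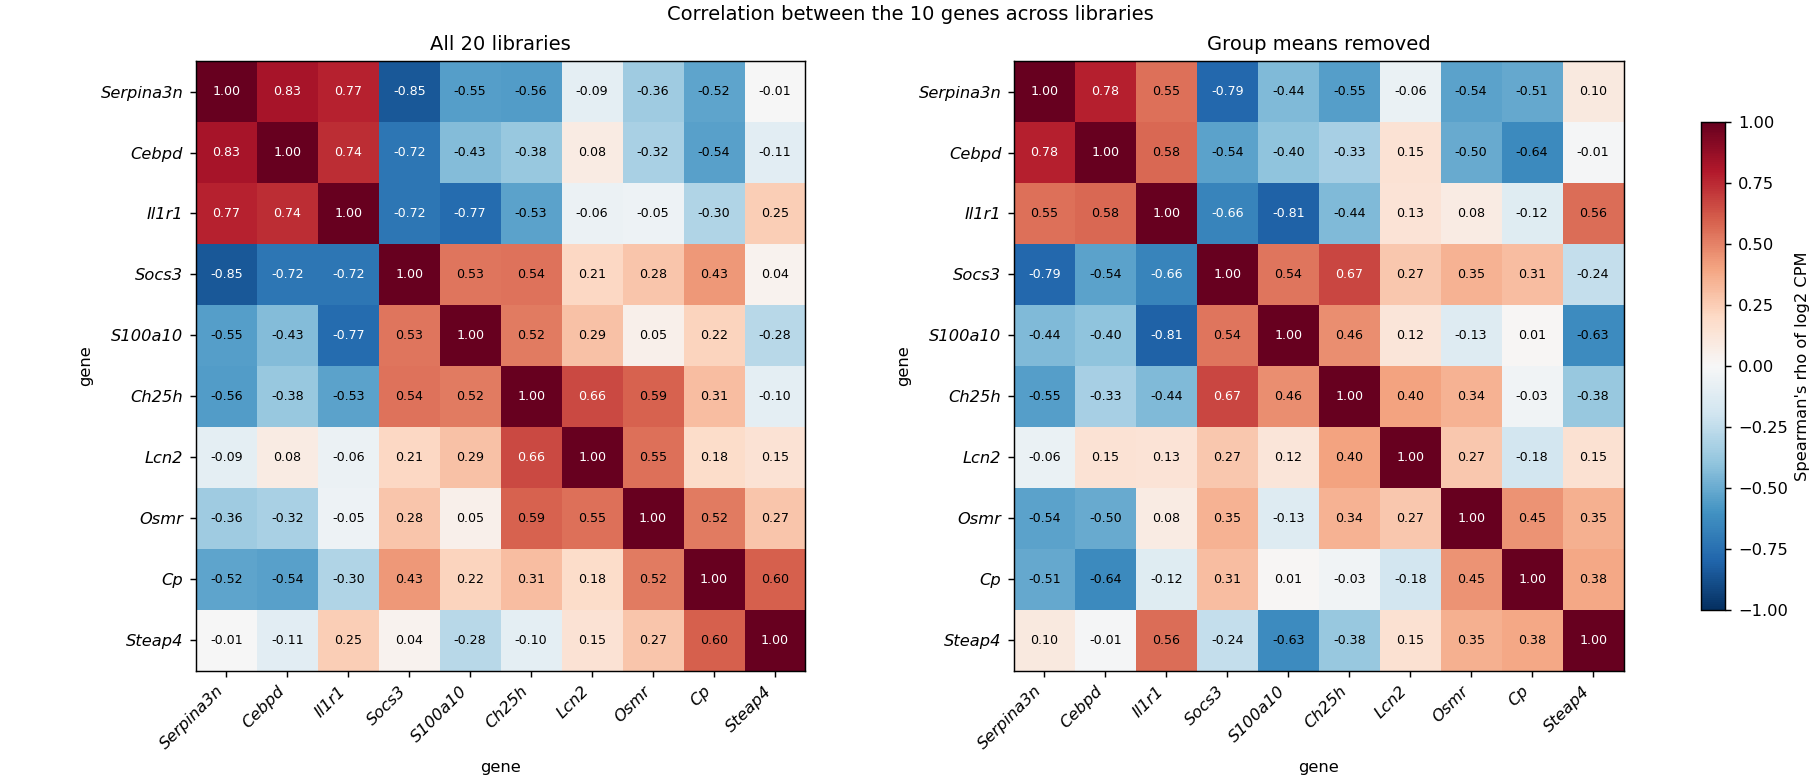
Spearman's rho between log2 CPM of each pair of the 10 genes over 20 libraries, as measured (left) and with group means removed (right); red is positive and blue negative, on 1 scale from -1 to 1. Serpina3n, Cebpd and Il1r1 form a red block, at 0.74 to 0.83 on the left, that is blue against Socs3, S100a10 and Ch25h.

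The mean of the z-scores of the 10 genes was lowest in ICI replicate 3, at -0.80, and highest in melanoma replicate 1, at 0.61. All 5 ICI libraries were below 0, and 4 of 5 libraries in melanoma and in the combined group were above 0. The genes most like this mean, by Spearman's rho over 20 libraries, were Adgrl4 (0.77), Cd84 (0.76), Nfe2l2 (0.76), Slc9a3 (0.73), Slfn5 (0.72), Mybl2 (0.71), Sgms1 (0.71), Tiparp (0.71), 4930506C21Rik (0.71) and Acer2 (0.69). They too are the top values of the search over all genes, with the same limit as for Lcn2. With opposed genes in it, the mean hides the 2 directions just described.

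Levels were then set against 17 marker lists for cell types, brain regions and cell states. A list's score in a library was the mean log2 CPM of its tested genes, which include none of the 10. Of 170 relations, 28 passed an adjusted p of 0.05 by Spearman's rho, 25 by Pearson's r and 21 by both (two-sided permutation tests with 100000 resamples, Benjamini-Hochberg over the 170). The lists for neutrophils and T cells had 1 tested gene each and that for melanocytes 3 of 6, too few for their relations to be read. The smallest p that these resamples can give is 1e-05. A further 40 relations, to lists for dentate gyrus, fields CA1 and CA3 and glucocorticoid-responsive genes added after the data were seen, were adjusted among themselves, and 15 passed by both. The first 17 lists had also been chosen with earlier results of these data known, so none of these p-values is independent evidence.

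Serpina3n followed the markers of hippocampal neurons closely, with r of 0.95 and rho of 0.95 (adjusted permutation p = 0.00034 and 0.00057). Without combined replicate 3 and ICI replicate 3, the libraries farthest from the median, r was 0.91, and with group means removed it was 0.96. The low Serpina3n of combined replicate 3 went with the lowest marker sum of all libraries, 367 CPM, and the high value of ICI replicate 3 with the highest, 1736 CPM. To the CA3 list, r was 0.97 and rho 0.96. To neocortical neurons r was -0.72 and rho -0.67 (adjusted permutation p = 0.00495 and 0.0141), -0.56 without the 2 farthest libraries, and to border macrophages -0.65 and -0.82 (0.0212 and 0.00068), -0.62 without the 2 farthest. To the astrocyte list no relation of Serpina3n passed.

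Cebpd and Il1r1 followed the hippocampal neuron list too. For Cebpd, r was 0.78 and rho 0.82 (adjusted permutation p = 0.00127 and 0.00121), r was 0.79 without the 2 farthest libraries and 0.76 with group means removed. Cebpd ran against 4 other lists by both coefficients. These were meningeal fibroblasts (r of -0.76 and rho of -0.79, adjusted permutation p = 0.00221 and 0.00151), astrocytes (-0.72 and -0.67, adjusted permutation p = 0.0051 and 0.0141), border macrophages (-0.71 and -0.74, adjusted permutation p = 0.00536 and 0.00402) and mural cells (-0.68 and -0.63, adjusted permutation p = 0.0138 and 0.0267). Without the 2 farthest libraries r was -0.77, -0.61, -0.73 and -0.63 in this order.

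For Il1r1 and hippocampal neurons, r was 0.78 and rho 0.88 (adjusted permutation p = 0.00113 and 0.00057), r was 0.93 without the 2 farthest and 0.75 with group means removed. Il1r1 was closest to the dentate gyrus list, with r of 0.90 and rho of 0.95, and ran against neocortical neurons, with r of -0.61 and rho of -0.66 (adjusted permutation p = 0.0339 and 0.0155) and -0.54 without the 2 farthest libraries.

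Socs3 ran the other way against hippocampal neurons, with r of -0.84 and rho of -0.89 (adjusted permutation p = 0.00034 and 0.00057), -0.81 without the 2 farthest libraries and -0.79 with group means removed. It ran with markers of neocortical neurons, with r of 0.73 and rho of 0.71 (adjusted permutation p = 0.00221 and 0.0068), 0.64 without the 2 farthest and 0.74 with group means removed, and with border macrophages, with r of 0.71 and rho of 0.70 (adjusted permutation p = 0.0085 and 0.00873) and 0.60 without the 2 farthest. S100a10 had r of -0.54 and rho of -0.67 to hippocampal neurons, where rho passed (adjusted permutation p = 0.0149) and r did not (0.0697).

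Cp followed the lists for vessel walls and brain borders. To mural cells, r was 0.82 and rho 0.86 (adjusted permutation p = 0.00034 and 0.00068), 0.81 without the 2 farthest libraries and 0.82 with group means removed. To meningeal fibroblasts, r was 0.85 and rho 0.81, 0.78 without the 2 farthest and 0.82 with group means removed. To border macrophages, r was 0.86 and rho 0.76. To endothelium, r was 0.65 and rho 0.66 (adjusted permutation p = 0.0198 and 0.0172), 0.62 without the 2 farthest and 0.49 with group means removed. Summed, each of these lists had a higher lowest and a higher highest library in the combined group than in ICI, but the ranges overlapped. Mural cells were at 204 to 272 against 156 to 205 CPM, and meningeal fibroblasts at 157 to 468 against 64.6 to 258 CPM. Border macrophages were at 6.89 to 11.9 against 2.81 to 8.62 CPM, and endothelium at 229 to 321 against 190 to 236 CPM. Their part in the higher Cp of the combined group was not tested beyond the covariate fit.

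Steap4 followed the choroid plexus, with r of 0.82 and rho of 0.84 (adjusted permutation p = 0.00121 and 0.00085), 0.83 without the 2 farthest libraries and 0.87 with group means removed. The summed choroid plexus markers in control were 39.7, 6407, 2644, 50.8 and 5085 CPM in replicate order, and the 3 libraries with the high sums were the 3 with the high Steap4. In ICI the sums were 25.9, 763, 359, 1863 and 2280.2 CPM.

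Lcn2 passed by both coefficients for 1 of the 17 lists, immediate early genes, with r of 0.62 and rho of 0.72 (adjusted permutation p = 0.029 and 0.00562), and r was 0.54 without the 2 farthest libraries. With group means removed, r was 0.45 and rho 0.27. Of the added lists it passed for glucocorticoid-responsive genes, with r of 0.69 and rho of 0.67 (adjusted permutation p = 0.00331 and 0.00542 over the 40), and r was 0.55 without the 2 farthest. With group means removed, r was 0.64 and rho 0.70. These coefficients span 2 separate sets of libraries, the 4 high in Lcn2 and the other 16. Within the 16, an alternative added after the data were seen, r was 0.53 and rho 0.61 for immediate early genes, and 0.51 and 0.47 for glucocorticoid-responsive genes, the latter with r of 0.15 without its 2 farthest libraries. Neither list passed there with adjustment over 21 lists. Adjusted permutation p was 0.238 by r and 0.282 by rho for immediate early genes, and 0.242 and 0.715 for glucocorticoid-responsive genes. The coefficients are kept as descriptions, since the 16 were set apart by Lcn2 itself and hold only 0 to 14 counts of it. The 4 high libraries are too few for a coefficient of their own.

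For Ch25h and hippocampal neurons, r was -0.61 and rho -0.62 (adjusted permutation p = 0.0351 and 0.0307), and r was -0.47 without the 2 farthest libraries and -0.53 with group means removed. For Ch25h and immediate early genes, r was 0.63 (adjusted permutation p = 0.0257), 0.63 without the 2 farthest and 0.50 with group means removed, and rho was 0.55, which did not pass (0.0658). Osmr passed by r alone for border macrophages, with r of 0.60 (adjusted permutation p = 0.0351), 0.51 without the 2 farthest and 0.48 with group means removed, while its rho of 0.48 did not (0.117). To the glucocorticoid-responsive list, Osmr had r of 0.67 and rho of 0.60 (adjusted permutation p = 0.00328 and 0.0146 over the 40 added relations), but r of 0.38 and rho of 0.37 with group means removed.

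**Figure D4:**
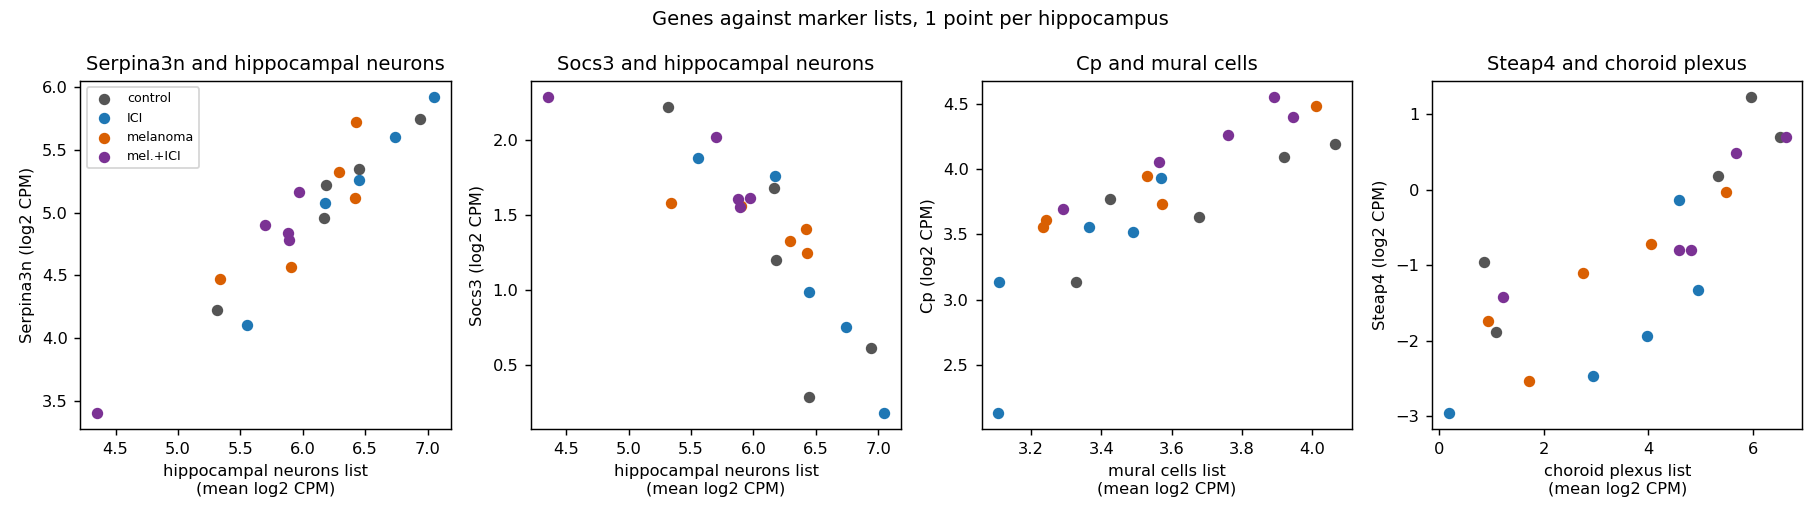
Log2 CPM of Serpina3n, Socs3, Cp and Steap4 (vertical axes) against the mean log2 CPM of a marker list (horizontal axes), 1 point per hippocampus, coloured by group. Serpina3n rises and Socs3 falls with hippocampal neuron markers, r of 0.95 and -0.84, Cp rises with mural cell markers, r of 0.82, and Steap4 with choroid plexus markers, r of 0.82.

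With the dentate gyrus score as a covariate, an alternative added after the data were seen, the log2 fold change of the combined group against ICI went from -0.59 to 0.18 for Serpina3n, from -0.63 to 0.20 for Cebpd and from -0.70 to 0.27 for Il1r1. It also went from 0.62 to 0.11 for Socs3, from 0.51 to 0.19 for S100a10, from 0.86 to 0.74 for Cp, from 0.37 to 0.29 for Osmr and from 2.03 to 1.58 for Ch25h, while Lcn2 went from 4.15 to 4.32 and Steap4 from 1.48 to 2.16. The summed dentate gyrus markers were 142 to 357 CPM in the combined group and 247 to 979.7 CPM in ICI. With the dentate gyrus score removed from all 10 genes, 7 pairs were above 0.5 and 2 below -0.5. The rho of Serpina3n and Il1r1 was then -0.01, while that of Serpina3n was 0.54 with Cebpd and -0.58 with Socs3. The pair of Lcn2 and Il1r1 went from -0.06 to 0.66 and that of Osmr and Il1r1 from -0.05 to 0.67.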

How the data were processed

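Hippocampal RNA was sequenced in 20 libraries, 5 per group, with group and replicate read from each title. The authors deposited raw counts per gene, 1 table a library. STAR 2.5.2b and DESeq2 1.16.1 were used per the submitters' processing notes. The counting program, the genome build and whether counting used strand are not given in the sources used here. Of 49671 identifiers, 49412 occur in GENCODE M21 (build GRCm38) and 45214 have the same start and end there. Symbols come from GENCODE M21, and 345 identifiers have none. Coordinates are those of the deposited tables.

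In edgeR 4.0.16 (R 4.3.3), genes were kept by filterByExpr (minimum count 10, minimum total 15), scaled by TMM (factors 0.9555 to 1.0432) and fitted with the quasi-likelihood model to all 20 libraries with 1 mean per group. The 6 contrasts were the 5 pairs of groups and the interaction, and the threshold was an adjusted p of 0.05. CPM is a count per 1000000 TMM-scaled counts, and log2 CPM used a prior count of 2. DESeq2 1.42.0, limma 3.58.1 (voom), size factors, no filter, only the groups compared, tissue covariates, the replicate number as a block and leaving out each library were the alternatives. The fits and correlations were tested on simulated data.

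The 10 genes, the pathway and marker lists and the tests were chosen with earlier results of these data known. The other genes named are, by rule, the 10 most like Lcn2 and the 10 most like the mean z-score, a set list of ligands, receptors and partners, and per pathway list any gene with an adjusted p under 0.05, or else the largest change at an unadjusted p under 0.05 in melanoma plus ICI against ICI. Vcam1 and Aspg were named after their values were seen. No 2 libraries of a group agreed within sampling noise (chi-square per gene 11.5 to 135 over 40 pairs). The p-values of the fits set group differences against the spread between mice. The permutation p-values come from shuffling all 20 libraries without regard to group, so differences between groups enter them as well as the spread between mice. Numbers shared across groups did not pair libraries: over 30 pairs with the same number, deviations from the group mean correlated at -0.35 to 0.53.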

Additional observations from a re-analysis of the deposited data

Results flagged for a closer look

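In each group of 5, the library at either end was compared with the rest of its group by Dixon's gap on the log2 CPM scale, for 10 genes in 4 groups. Serpina3n in melanoma plus ICI replicate 3, at 10.5 CPM, was far below the other 4 of its group, which were at 27.3 to 35.8 CPM, with a gap of 0.78 of the log2 range (0.67 of the CPM range, which would not be marked). Osmr in control replicate 4, at 2.77 CPM, was far below the other 4 controls, at 5.36 to 6.03 CPM, with a gap of 0.85 of the log2 range (0.79 of the CPM range). Chance marks about 1 in 20 groups in this way. The first of these libraries had the lowest sum of hippocampal neuron markers and the second stood apart on the first principal component.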

How the results depend on the processing

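In all 29 alternatives (28 for the interaction, where only the 2 groups compared could not be run), 0 of the 10 genes had an adjusted p under 0.05. Of 1730 alternative fold changes, 1711 stayed within 1 SD of a library, and 19 moved further; 75, in 27 of 60 pairs of gene and contrast, had the opposite sign to the value reported. Genes of the pathway lists, 0 with edgeR, were 2 with DESeq2 in melanoma plus ICI against ICI and 2 in the interaction (Aspg and Vcam1 in both). With limma voom 3 passed in melanoma plus ICI against melanoma (Sgk1, Tsc22d3 and Plin4). Leaving out 1 library at a time gave 0 to 1 there, the 1 being Plin4 without melanoma plus ICI replicate 3 (adjusted p = 0.0393). Over all genes, DESeq2 called 47 in the interaction, where edgeR called 0. Relations to marker lists passing by rho were 14 in place of 28 without the 2 farthest libraries, which has fewer samples, and 21 with group means removed. For Lcn2, rho was 0.61 with immediate early genes and 0.47 with glucocorticoid-responsive genes within the 16 libraries low in it, and neither passed. The median rho between the 10 genes was 0.22 with choroid plexus and meningeal fibroblast scores removed, and 0.028 to 0.10 when 1 library was left out. The cause of these changes was not tested. No scaling moved the median of all genes by over 0.1 on the log2 scale.

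With the replicate number as a block, 0 of the 10 genes and 0 pathway genes had an adjusted p under 0.05 in any contrast, and it changed no call. Same-numbered libraries correlated at a median of -0.0047, other pairs at -0.011, and 6 of 20 libraries correlated best with their own number. Depth limited Lcn2, Ch25h and Steap4 most, with 0 to 82, 1 to 54 and 1 to 55 counts a library.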
